A study of Mus musculus with 12 samples.

Results

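The insulin-like growth factor (IGF) axis was described in the hearts of 12 mice, 6 ac-WT and 6 ac-CYB5R3–KO, through 10 of the 53700 genes counted, namely the ligands Igf1 and Igf2, the receptors Igf1r and Igf2r, and the binding proteins Igfbp2, Igfbp3, Igfbp4, Igfbp5, Igfbp6 and Igfbp7. The family was chosen because Igfbp2 was already known to be higher in the ac-CYB5R3–KO hearts of this series, so the difference in Igfbp2 is given as a description without a test, while the other 9 genes entered as members of its family and not for their own values. All mice were males that carried the Myh6-CreERT2 transgene, a tamoxifen-activated Cre recombinase driven by a cardiomyocyte promoter, on an FVB and C57BL/6 mixed background that had been backcrossed to C57BL/6J. Both groups received tamoxifen (33 mg/kg/d) over 5 days, starting when the mice were 10 to 13 weeks old, and the hearts were collected 5 days later. The groups differed in Cyb5r3, the cytochrome b5 reductase gene, which was wild-type in ac-WT and floxed in ac-CYB5R3–KO mice. Since Cre is made in cardiomyocytes, the other cells of the heart keep their Cyb5r3 alleles, and the whole-heart RNA mixes all of them.

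IGF1 and IGF2 are secreted peptides that signal through the tyrosine kinase receptor IGF1R to the PI3K-AKT and MAP kinase cascades, and in the heart IGF1 signaling is known for its part in cardiomyocyte growth and survival. IGF2R, also the mannose 6-phosphate receptor, carries IGF2 and lysosomal enzymes to lysosomes and has no kinase of its own. The IGF binding proteins hold IGFs in blood and tissue and limit or prolong their access to the receptor, with IGFBP6 preferring IGF2 and IGFBP7 binding IGFs only weakly.

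Total counts were between 43393183 and 53754284 per heart in ac-WT and between 43933454 and 51653683 in ac-CYB5R3–KO. Values are CPM, counts set relative to library size, scaled by the TMM factors of edgeR, which correct for differences in RNA composition between libraries. The TMM factors were lowest in ac-WT mice 2 and 3, at 0.570 and 0.723, and the next lowest was 0.988 in ac-WT mouse 1. The share of counts from mitochondrial genes was highest in these 2 mice, at 35.3% and 34.8%, and next highest in ac-WT mouse 1 at 30.1%. Errors given as ± are the SD over the 6 hearts of a group. Cyb5r3 itself differed by -1.22 on the log2 scale, and its groups did not overlap. In whole tissue, fewer cells of a type and less RNA per cell cannot be told apart, and this holds for every difference given here.

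Igfbp2 and Igfbp6 were the members whose 2 groups of hearts did not overlap, so their promoters are shown. The windows cover 250 bases before to 50 bases after the transcript start in RefSeq on GRCm38.p6, chr1:72824230-72824529 on the + strand for Igfbp2 and chr15:102143936-102144235 on the + strand for Igfbp6. Capitals mark the motifs that were found, searched on both strands as GGGCGG for the GC box, TATAAA for the TATA box and GTAAACA for the FOXO motif.
Igfbp2: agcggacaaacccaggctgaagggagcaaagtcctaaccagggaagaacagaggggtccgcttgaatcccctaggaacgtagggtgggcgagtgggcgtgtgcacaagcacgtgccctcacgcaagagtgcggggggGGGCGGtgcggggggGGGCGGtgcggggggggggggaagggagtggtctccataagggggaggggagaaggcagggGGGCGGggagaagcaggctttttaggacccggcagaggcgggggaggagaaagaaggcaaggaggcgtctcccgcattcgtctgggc
Igfbp6: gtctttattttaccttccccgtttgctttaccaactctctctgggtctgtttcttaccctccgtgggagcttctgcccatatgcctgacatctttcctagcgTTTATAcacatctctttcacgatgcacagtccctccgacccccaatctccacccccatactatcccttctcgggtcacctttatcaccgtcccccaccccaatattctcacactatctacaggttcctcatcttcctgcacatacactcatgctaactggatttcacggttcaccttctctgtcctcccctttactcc
The Igfbp2 window held 3 GC boxes, which 35.7% of 32851 RefSeq promoter windows of this length carry at least once, and its GC content was 67.0% with 18 CpG pairs, against a median of 52.7% and 7 CpG pairs over all windows. A further RefSeq start of Igfbp2, with a window at chr1:72825137-72825436, held none of the 3 motifs. The Igfbp6 window held no GC box and 1 match to the letters of the TATA box, a match found in 13.6% of windows. It reads TTTATA, so it lies on the strand opposite the gene, and motifs were matched at any position of a window. The GC content of the Igfbp6 window was 49.7% with 8 CpG pairs. The FOXO motif, present in 3.65% of all windows, was in none of the windows of the 10 members. The motifs did not overlap one another in either window.

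Igfbp2, a binding protein that the liver secretes into blood and that is abundant in fetal tissues, was barely detected in ac-WT hearts and was higher in every ac-CYB5R3–KO heart. The gene (ENSMUSG00000039323) lies on chromosome 1 from 72871077 to 72899048 on the + strand in NCBIM37, the mm9 assembly. The ac-WT hearts 1 to 6 had 5, 3, 1, 14, 6 and 4 counts, and the ac-CYB5R3–KO hearts 1 to 6 had 95, 127, 121, 69, 24 and 34 counts. Scaled to library size, Igfbp2 ran from 0.0278 to 0.290 CPM with a median of 0.0995 in ac-WT and from 0.451 to 2.18 CPM with a median of 1.62 in ac-CYB5R3–KO hearts. Mice 5 and 6 were the lowest of the ac-CYB5R3–KO group, and all of its hearts lay above ac-WT mouse 4, the highest of the control group.

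The mean of Igfbp2 was 0.119 ± 0.0899 CPM over the 6 ac-WT hearts and 1.44 ± 0.731 CPM over the 6 ac-CYB5R3–KO hearts (SD, n = 6 each), a difference of 3.53 on the log2 scale (SE 0.49), which ranked 1 by rise among the 17847 genes tested. Of all genes tested, 0.51% were higher without overlap between the groups, and because the family was chosen for this contrast, nothing is read from it. Only 1 of 6 ac-WT libraries held 10 or more counts, so Igfbp2 passed the count filter through the ac-CYB5R3–KO group. The summed counts, 33 against 470, gave a ratio of 11.9 per normalized library size (95% exact counting interval 8.34 to 17.5), an interval that covers counting error only and not the spread between mice. Over 21 alternative analyses of the same counts the log2 fold change of Igfbp2 was between 3.29 and 4.02, and nothing is read from this either.

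**Figure D1:**
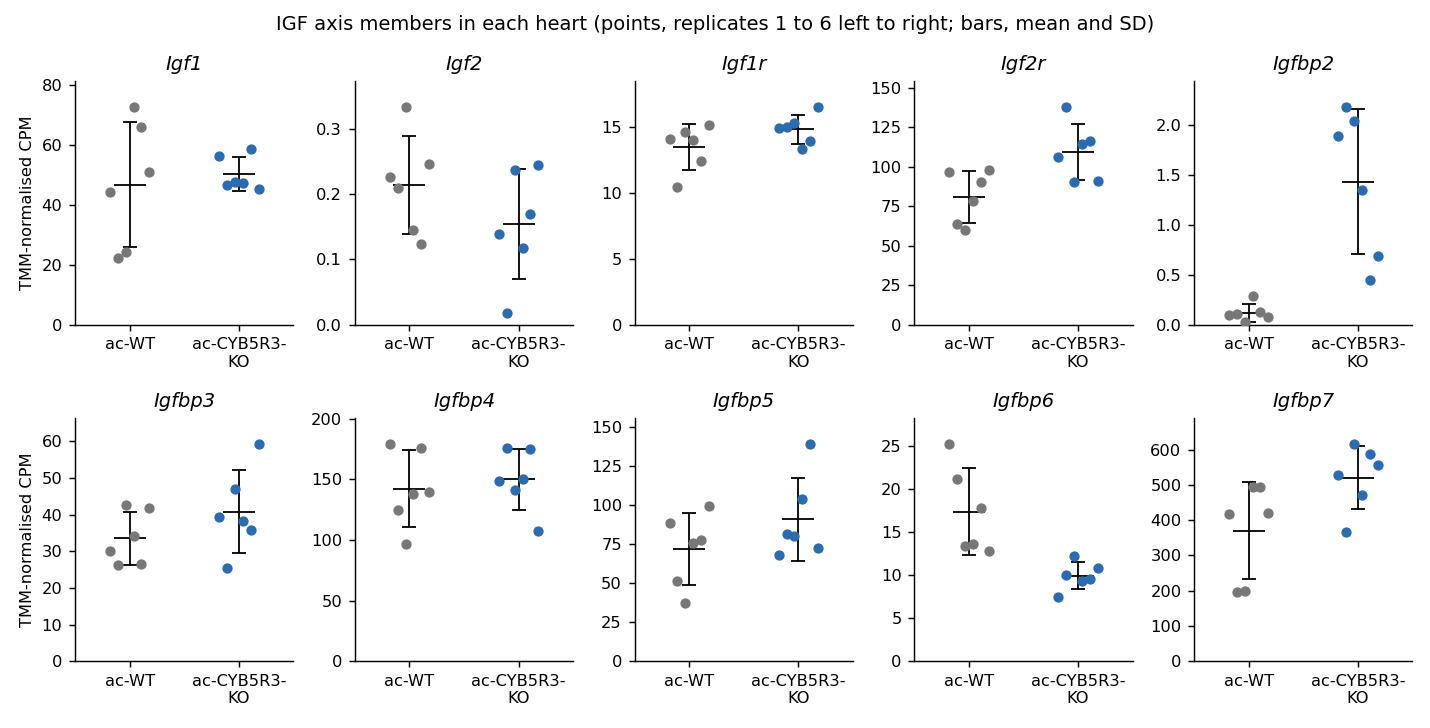
TMM-normalized CPM of the 10 IGF axis members in each of 6 ac-WT (grey) and 6 ac-CYB5R3–KO (blue) hearts, on axes that start at 0. Points are hearts in the order of replicates 1 to 6, and bars are the mean and SD. Igfbp2 and Igfbp6 are the panels without overlap between groups, with ac-CYB5R3–KO hearts from 0.451 to 2.18 CPM in Igfbp2 and from 7.52 to 12.3 CPM in Igfbp6, and ac-WT mice 2 and 3 are the lowest control hearts in Igf1, Igf2r, Igfbp4, Igfbp5 and Igfbp7.

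Even in ac-CYB5R3–KO hearts, Igfbp2 remained a small part of the binding protein mRNA. On a scale of CPM per kb of exon, on which genes of different length can be compared, it made up 0.00631 to 0.0313% of the binding protein level in ac-WT and 0.0406 to 0.289% in ac-CYB5R3–KO hearts. Igfbp1, the binding protein of the family that is not among the 10 members, had 0 counts in all 12 hearts, where a limit of 3 counts corresponds to 0.0565 to 0.105 CPM in ac-WT and 0.0507 to 0.0611 CPM in ac-CYB5R3–KO libraries.

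The neighbours of Igfbp2 on chromosome 1 had much smaller differences than Igfbp2. Igfbp5, transcribed from the opposite strand, lies 5.46 kb beyond the end of Igfbp2 and had a log2 fold change of 0.34. On the other side the nearest tested gene was Rpl37a, a ribosomal protein gene 111 kb away, with 237 ± 37.4 CPM in ac-WT and 198 ± 15.7 CPM in ac-CYB5R3–KO hearts, a difference of -0.26 on the log2 scale (SE 0.12, adjusted p = 0.326 in edgeR). Counts of Igfbp2 per 1000 counts of Igfbp5 ran from 0.739 to 3.85 in ac-WT hearts, and the ac-CYB5R3–KO hearts ranged from 3.25 to 27.9, so this ratio overlapped between the groups through ac-CYB5R3–KO mouse 5.

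Over the 12 hearts, the genes whose log2(CPM + 0.1) was most like that of Igfbp2 were Fam19a5 (Pearson r = 0.934), Car11 (0.919), Prkab2 (0.911), Igj (0.908) and Igkc (0.906). These r are descriptive, since the hearts share the group difference that separates them. Igj and Igkc encode the joining chain and the kappa constant region of antibodies, and Prkab2 encodes a regulatory subunit of the AMP-activated kinase. After each group's mean was subtracted, the closest were Car11 (r = 0.849), ENSMUSG00000099634 (0.813), Cds1 (0.809), ENSMUSG00000114120 (0.808) and Stk30 (0.791). Car11, a carbonic anhydrase-related gene, was on both lists, which come from the same 12 hearts. Each list holds the highest r among all genes tested, and Igfbp2 had 1 to 14 counts in ac-WT hearts, so nothing is read from these r. Among the members, r with Igfbp2 over the 12 hearts was highest for Igf2r (0.655) and Igfbp7 (0.542) and lowest for Igfbp6 (-0.717). Within groups the members were between -0.35 for Igfbp3 and 0.29 for Igf1.

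Among marker genes of other cells, 1 gene on the B cell list (Jchain, the same gene as Igj) had an edgeR adjusted p under 0.05. The cartilage, T cell, red blood cell and airway lists held 0, and 0.101% of all genes tested passed. The summed level of 6 B cell and plasma cell genes was 1.67 to 2.60 CPM in ac-WT and 2.89 to 6.63 CPM in ac-CYB5R3–KO hearts, and that of 7 cartilage genes was 3.52 to 35.5 CPM and 37.5 to 96.9 CPM, without overlap in either list. Nearly all of the cartilage sum was Comp, at 3.16 to 34.5 CPM and 37.0 to 95.8 CPM, while the other 6 genes were each below 1 CPM in every heart and Col9a1 was at 0 in all ac-WT hearts. On the B cell list the groups of Jchain were apart, at 0.132 to 0.871 CPM and 1.24 to 4.40 CPM. Of the tested genes, 3 of 4 on the B cell list and 3 of 3 on the cartilage list had a positive log2 fold change, with 1 and 2 of them at an unadjusted edgeR p under 0.01. Beside these lists and the next, 48.8% of all genes had a positive log2 fold change and 1.33% were higher at that p. Red blood cell genes (4 of 4 higher, 0 at p under 0.01) ranged from 222 to 4488 CPM in ac-WT hearts, while the ac-CYB5R3–KO hearts ranged from 1324 to 12239 CPM, and T cell genes (5 of 5 higher, 2 at p under 0.01) from 1.03 to 3.42 CPM and from 3.30 to 5.39 CPM. Among airway genes, 2 of 8 could be tested, their summed level overlapped, and Scgb3a2 was at 0 in every library. The part of these cells in the level of Igfbp2 was not tested.

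Apart from Igfbp2, 8 of the other 9 members had enough counts to be fitted, and Igf2 did not. At an edgeR adjusted p under 0.05 over all genes, 0 of these 8 passed, where 0.101% of all genes did. At an unadjusted p under 0.05, 2 of the 8 passed (Igf2r higher and Igfbp6 lower), against 14.6% of all genes, and at p under 0.01 Igfbp6 alone passed, against 4.59% of all genes. DESeq2 called 1 of the 8, Igfbp6, at an adjusted p under 0.05 and limma-voom called 0, where they called 2.45% and 0.0112% of all genes. At an unadjusted p under 0.05 each gave 3 of the 8, against 16.3% of all genes in DESeq2 and 13.6% in limma-voom. The log2 fold change was positive in 7 of 8 members with a median of 0.21, beside 48.8% of all genes and a median of -0.01. Without ac-WT mice 2 and 3, Igf1 and Igfbp4 turned negative.

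Igfbp6, the binding protein with a preference for IGF2, was the fitted member with a negative log2 fold change in ac-CYB5R3–KO hearts. The gene (ENSMUSG00000023046) lies on chromosome 15 from 101974793 to 101979942 on the + strand in NCBIM37. Its level ran from 12.8 to 25.2 CPM with a median of 15.7 in ac-WT and from 7.52 to 12.3 CPM with a median of 9.81 in ac-CYB5R3–KO hearts. The groups stood next to each other without overlap, with ac-CYB5R3–KO mouse 3 just below ac-WT mouse 6, and 1.04% of all genes tested were lower in this way. The means were 17.3 ± 5.04 and 9.93 ± 1.59 CPM (SD, n = 6 hearts each), a difference of -0.80 on the log2 scale (SE 0.18). The edgeR p was 0.000532 before and 0.144 after adjustment over all genes, so Igfbp6 did not pass the adjusted threshold, and with DESeq2 the adjusted p was 0.00651. The exact permutation test (two-sided, over all placements of 12 hearts into 6 and 6) gave p = 0.00216, the smallest p it can give.

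Whether the Igfbp6 groups overlapped depended on how libraries were scaled. When libraries were scaled by their total counts instead, the groups did overlap, at 9.67 to 24.9 CPM in ac-WT hearts, while the ac-CYB5R3–KO hearts ranged from 7.94 to 15.0 CPM, and the log2 fold change was -0.51 (edgeR p = 0.0382 before adjustment, exact permutation p = 0.0844). Over all genes that scaling raised the median to 0.26 on the log2 scale, and relative to it Igfbp6 stood at -0.77, beside -0.80 with TMM. With DESeq2 size factors in edgeR the log2 fold change was -0.81. Without ac-WT mice 2 and 3 the log2 fold change was -0.79, with an edgeR p of 0.00117 before and 0.228 after adjustment.

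Ratios to other binding proteins of the same heart do not need a library scaling. Counts of Igfbp6 per 1000 counts of Igfbp7 ran from 27.4 to 108 in ac-WT hearts, and the ac-CYB5R3–KO hearts ranged from 14.2 to 27.5, which overlapped by a small margin at ac-WT mouse 4 and ac-CYB5R3–KO mouse 2. Per 1000 counts of Igfbp4 they ran from 92.2 to 169.5 in ac-WT hearts, and the ac-CYB5R3–KO hearts ranged from 50.4 to 100.9, where mouse 6 was the highest of its group. The ratios to Igfbp3 and Igfbp5 overlapped as well. As a share of the summed binding protein level per kb, Igfbp6 took 2.43 to 7.58% in ac-WT and 1.27 to 2.21% in ac-CYB5R3–KO hearts, without overlap.

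**Figure D2:**
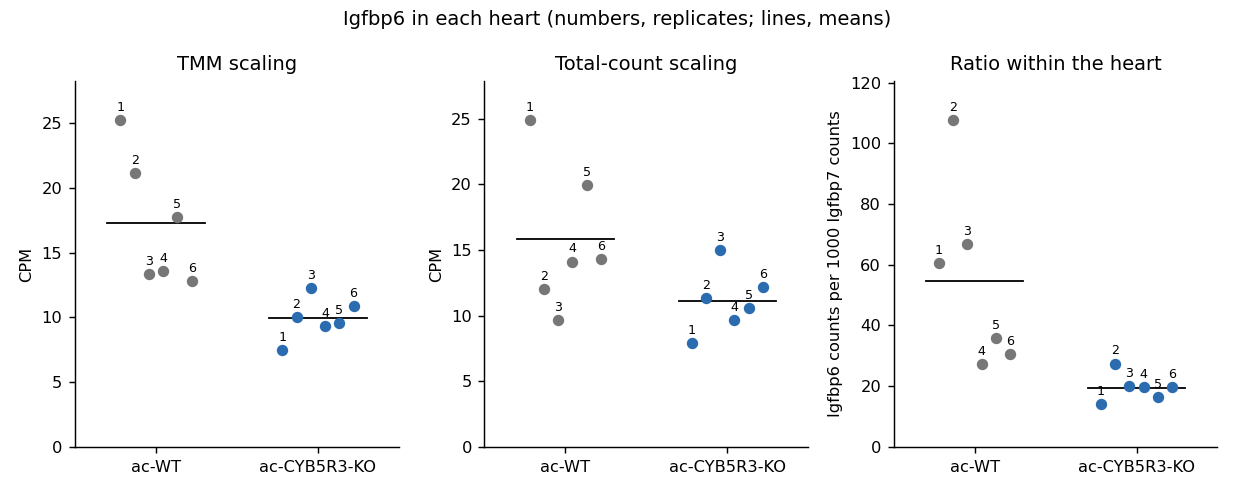
Igfbp6 in each of 6 ac-WT (grey) and 6 ac-CYB5R3–KO (blue) hearts, as TMM-normalized CPM, as CPM of total counts and as counts per 1000 Igfbp7 counts of the same heart. Points are hearts with their replicate number, lines are group means and axes start at 0. Of the 3 panels, the groups are apart in that with TMM scaling. Total counts place ac-WT mice 2, 3, 4 and 6 (12.1, 9.67, 14.1 and 14.3 CPM) within the range of the ac-CYB5R3–KO hearts.

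Igfbp7 and Igfbp4 were the most abundant binding protein mRNAs. Igfbp7 (ENSMUSG00000036256, chromosome 5 from 77778265 to 77837070, - strand), a secreted protein of the vessel wall, ran from 197 to 494 CPM with a median of 419 in ac-WT and from 366 to 616 CPM with a median of 542 in ac-CYB5R3–KO hearts. The overlap between groups was wide, and ac-WT mice 2 and 3 were far below the rest of their group. The log2 fold change of Igfbp7 was 0.49 (SE 0.24, edgeR adjusted p = 0.367, exact permutation p = 0.0671), and without ac-WT mice 2 and 3 it was 0.20 (exact permutation p = 0.267). With total counts the exact permutation p of Igfbp7 was 0.0476 and its log2 fold change 0.66. Relative to the median of all genes under that scaling (0.26), Igfbp7 stood at 0.40. Polr2b overlaps Igfbp7 on the other strand, with 10754 counts against 271981 over all hearts.

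Igfbp4 (ENSMUSG00000017493, chromosome 11 from 98902558 to 98913969, + strand), which blocks IGF action until it is cut by the protease PAPP-A, ran from 96.9 to 179 CPM with a median of 139 in ac-WT and from 108 to 176 CPM with a median of 149.7 in ac-CYB5R3–KO hearts. The ranges nearly coincided, and the log2 fold change was 0.07 (SE 0.16, edgeR adjusted p = 0.853, exact permutation p = 0.632). Its sign changed without ac-WT mice 2 and 3 (-0.06).

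Igfbp5 and Igfbp3, which bind IGFs with high affinity and form the ternary complex with the acid-labile subunit, also overlapped between the groups. Igfbp5 (ENSMUSG00000026185, chromosome 1 from 72904506 to 72921458, - strand) ran from 37.6 to 99.2 CPM with a median of 76.5 in ac-WT and from 68.0 to 139 CPM with a median of 81.0 in ac-CYB5R3–KO hearts, a difference of 0.34 on the log2 scale (SE 0.23, adjusted p = 0.508 in edgeR, exact permutation p = 0.210). Without ac-WT mice 2 and 3 the log2 fold change of Igfbp5 was 0.11. Igfbp3 (ENSMUSG00000020427, chromosome 11 from 7106089 to 7113926, - strand) ran from 26.4 to 42.5 CPM with a median of 32.2 in ac-WT and from 25.5 to 59.3 CPM with a median of 38.7 in ac-CYB5R3–KO hearts, a difference of 0.28 on the log2 scale (SE 0.19, adjusted p = 0.500 in edgeR, exact permutation p = 0.236). The 6 binding protein genes summed to 636 ± 180.2 CPM over the 6 ac-WT hearts and 814 ± 99.8 CPM over the 6 ac-CYB5R3–KO hearts (SD, n = 6 each), with ranges of 391 to 792 and 662 to 946 that overlapped.

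The ligand Igf1 (ENSMUSG00000020053, chromosome 10 from 87321010 to 87399792, + strand) had similar medians in the groups and differed in its spread. It ran from 22.1 to 72.5 CPM with a median of 47.6 in ac-WT and from 45.1 to 58.7 CPM with a median of 47.4 in ac-CYB5R3–KO hearts. All ac-CYB5R3–KO hearts lay inside the ac-WT range, with ac-WT mice 2 and 3 (22.1 and 24.3 CPM) at its lower end. The log2 fold change was 0.11 (SE 0.26, edgeR adjusted p = 0.868, exact permutation p = 0.442), and its sign changed without these 2 mice (-0.20, exact permutation p = 0.233). The coefficient of variation of Igf1 was 44.6% in ac-WT, 22.4% without the 2 mice, and 11.4% in ac-CYB5R3–KO hearts. A lower coefficient of variation in ac-CYB5R3–KO hearts was common to 8 of the 10 members (80%) and to 78.6% of all genes tested.

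Igf2 (ENSMUSG00000048583, chromosome 7 from 149836673 to 149852721, - strand), the fetal growth ligand whose maternal copy is imprinted and silent, was near the detection limit in both groups. The ac-WT hearts 1 to 6 had 12, 6, 12, 7, 6 and 13 counts, and the ac-CYB5R3–KO hearts 1 to 6 had 7, 1, 14, 6, 9 and 12 counts. The levels were 0.214 ± 0.0754 and 0.154 ± 0.0842 CPM (SD, n = 6 hearts each) and overlapped (exact permutation p = 0.240), so no difference in Igf2 was detectable at this depth. Igf2as, a transcript of the other strand that overlaps Igf2, had 25 counts against 105 for Igf2 over all hearts.

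The receptors were higher on average in ac-CYB5R3–KO hearts, Igf2r by more than Igf1r. Igf2r (ENSMUSG00000023830, chromosome 17 from 12875272 to 12962530, - strand) ran from 59.8 to 97.9 CPM with a median of 84.5 in ac-WT and from 90.3 to 138 CPM with a median of 110.4 in ac-CYB5R3–KO hearts. Mice 3 and 6 of the ac-CYB5R3–KO group lay within the ac-WT range. The means were 81.1 ± 16.6 and 109 ± 17.9 CPM (SD, n = 6 hearts each), a difference of 0.43 on the log2 scale (SE 0.15). The edgeR p was 0.0129 before and 0.231 after adjustment, and the exact permutation p was 0.0195, or 0.0905 without ac-WT mice 2 and 3. Airn, the antisense transcript at the Igf2r locus that silences its paternal copy, had 2331 counts against 57654 of Igf2r and differed by -0.21 on the log2 scale (SE 0.25, adjusted p = 0.708 in edgeR).

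Igf1r (ENSMUSG00000005533, chromosome 7 from 75097713 to 75371484, + strand) ran from 10.5 to 15.2 CPM with a median of 14.1 in ac-WT and from 13.4 to 16.5 CPM with a median of 15.0 in ac-CYB5R3–KO hearts. The groups overlapped, with ac-WT mouse 2 lowest, and the log2 fold change was 0.14 (SE 0.10, edgeR adjusted p = 0.535, exact permutation p = 0.145). With total counts the exact permutation p of Igf1r was 0.0411 and its log2 fold change 0.38. Total counts raised the median of all genes to 0.26, and relative to it Igf1r stood at 0.13. The ratio of Igf1 to Igf1r counts ran from 1661 to 5296 per 1000 in ac-WT hearts, and the ac-CYB5R3–KO hearts ranged from 2732 to 4208 per 1000, so every ac-CYB5R3–KO heart lay inside the ac-WT range for this ratio.

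**Figure D3:**
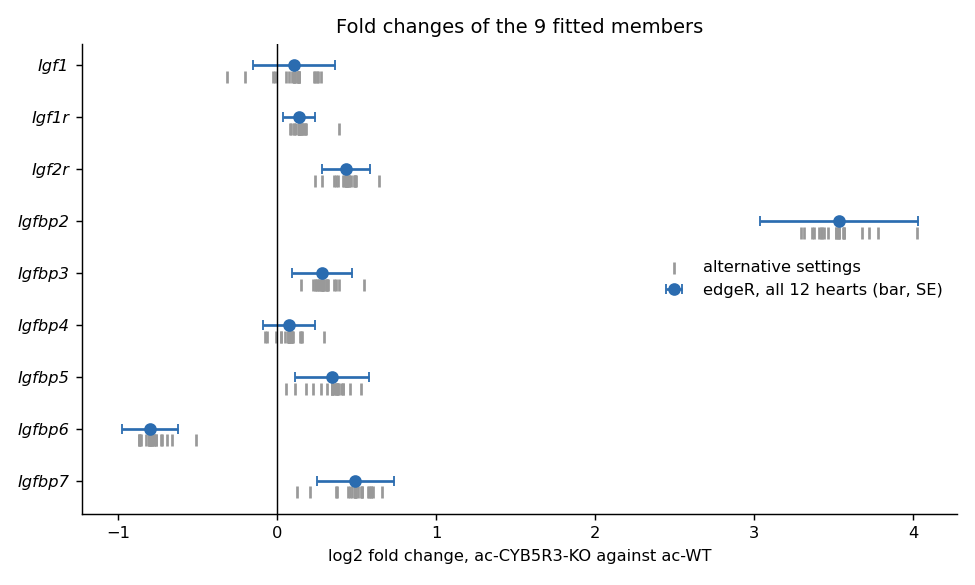
Log2 fold change of the 9 fitted members, ac-CYB5R3–KO against ac-WT hearts (n = 6 per group). Circles are edgeR estimates with SE bars, and grey ticks are the same gene under the alternative analyses. Igfbp2 (3.53) stands far to the right, Igfbp6 (-0.80) stays below 0 under all alternatives shown, and the ticks of Igf1 and Igfbp4 fall on both sides of 0.

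Per kb of exon, the members spanned several orders of magnitude, and the order of their means was alike in the groups except for Igfbp6. In ac-WT hearts the mean level was 306 CPM per kb for Igfbp7, 60.3 for Igfbp4, 15.6 for Igfbp6, 11.9 for Igfbp5, 10.7 for Igfbp3, 8.59 for Igf2r, 4.71 for Igf1, 3.01 for Igf1r, 0.0646 for Igfbp2 and 0.0389 for Igf2. In ac-CYB5R3–KO hearts it was 429 CPM per kb for Igfbp7, 63.5 for Igfbp4, 15.1 for Igfbp5, 13.0 for Igfbp3, 11.6 for Igf2r, 8.93 for Igfbp6, 5.07 for Igf1, 3.32 for Igf1r, 0.778 for Igfbp2 and 0.0281 for Igf2. By these means Igfbp6 stood above Igfbp5, Igfbp3 and Igf2r in ac-WT and below them in ac-CYB5R3–KO hearts. Single hearts did not all follow the means. Igfbp6 was above Igfbp5 in 4 of 6 ac-WT hearts, and Igf2r was above Igfbp6 in 4 of 6 ac-CYB5R3–KO hearts. Igfbp7 made up 64.6 to 81.2% of the binding protein level per kb in ac-WT and 73.9 to 84.1% in ac-CYB5R3–KO hearts.

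Neighbours in this order were compared within hearts by an exact sign-flip permutation test of their log2 ratio, whose smallest p with 64 sign patterns is 0.0312. Of the 7 neighbouring pairs without Igfbp2, 4 had the same order in all 6 ac-CYB5R3–KO hearts and reached that p, namely Igfbp7 over Igfbp4, Igfbp4 over Igfbp5, Igfbp6 over Igf1, and Igf1 over Igf1r. Adjusted over the 7 pairs the exact permutation p was 0.0547, so 0 passed. In ac-WT hearts 3 of the 7 reached it, Igfbp7 over Igfbp4, Igfbp4 over Igfbp6, and Igf2r over Igf1, with an adjusted exact permutation p of 0.0729. Adjusted over all 9 pairs, 6 passed in ac-CYB5R3–KO hearts (exact permutation p = 0.0469) and 0 in ac-WT hearts (0.0703), but the 6 include the 2 pairs with Igfbp2. Nothing is read from the count over 9 pairs. It depends on the values for which the family was chosen and on how many pairs share the smallest p. The pairs Igfbp5 and Igfbp3, Igfbp3 and Igf2r, and Igf2r and Igfbp6 had no common order in ac-CYB5R3–KO hearts.

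**Figure D4:**
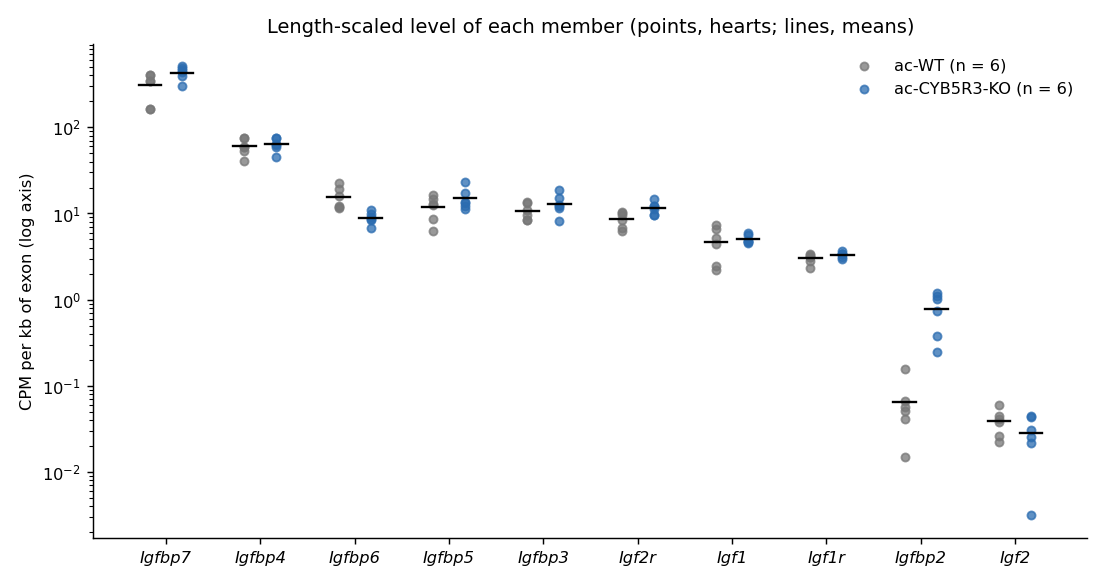
Level of each member as CPM per kb of exon, on a log axis, in 6 ac-WT (grey) and 6 ac-CYB5R3–KO (blue) hearts, ordered by the ac-WT mean. Points are hearts and lines are group means. Igfbp7 is highest in both groups (306 and 429 CPM per kb), Igf2 lowest (0.0389 and 0.0281), and Igfbp2 moves from near Igf2 (0.0646) towards Igf1r (0.778).

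Other genes of the pathway were grouped into 7 lists of 94 genes, of which 83 were tested. Of these, 50 had a positive and 33 a negative log2 fold change with a median of 0.04. At an unadjusted edgeR p under 0.01, 2 genes were higher (Pik3r3 and Bnip3, where 1.33% of all genes were) and 2 were lower (Cish and Htra3, where 3.27% were). At an unadjusted p under 0.05 there were 5 higher and 4 lower genes, against 4.91% and 9.73% of all genes. In edgeR, 0 of the 83 passed an adjusted p under 0.05, with 0.173 as the lowest, while DESeq2, which called 2.45% of all genes, called 4, namely Pik3r3, Bnip3, Cish and Htra3.

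The proteases and carriers around the IGFs included the acid-labile subunit gene Igfals and the PAPP-A inhibitor gene Stc2 as the genes with the largest differences of their list. Igfals was low, at 2.06 ± 1.05 CPM in ac-WT and 1.18 ± 0.414 CPM in ac-CYB5R3–KO hearts, a difference of -0.79 on the log2 scale (SE 0.32, adjusted p = 0.274 in edgeR). Stc2 had 13.6 ± 3.42 CPM and 21.0 ± 7.54 CPM, a difference of 0.63 on the log2 scale (SE 0.23, adjusted p = 0.249 in edgeR). The median log2 fold change of the 5 tested genes of this list was 0.37, with 4 higher and 1 lower, 0 of them at p under 0.01. Ins1, Ins2, Insrr and Pappa2 were too low to test, as was Igfbp1, while the insulin receptor gene Insr had a log2 fold change of 0.02.

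Genes of other proteins with an IGFBP-like domain, mostly matricellular CCN proteins and HTRA proteases, had a median of 0.19 over 11 tested genes, with 8 higher and 3 lower. Htra3, a secreted serine protease, ran from 102 to 151 CPM with a median of 119 in ac-WT and from 44.6 to 121 CPM with a median of 69.3 in ac-CYB5R3–KO hearts. The groups met through ac-CYB5R3–KO mouse 5, the highest of its group. Its means were 123 ± 21.8 CPM and 71.6 ± 27.8 CPM (SD, n = 6 each), a difference of -0.78 on the log2 scale (SE 0.22). The edgeR p of Htra3 was 0.00351 before and 0.184 after adjustment. Ccn5, a CCN protein gene of fibroblasts and smooth muscle, had 27.1 ± 17.5 CPM in ac-WT and 47.4 ± 10.3 CPM in ac-CYB5R3–KO hearts, a difference of 0.81 on the log2 scale (SE 0.38, adjusted p = 0.347 in edgeR).

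Receptor signaling genes, from the IRS adaptors to PI3K, AKT, mTOR and the FOXO factors, were centred close to 0. The median was 0.03 over 40 tested genes, with 23 higher and 17 lower, and values between -0.38 and 0.53. Pik3r3, a regulatory subunit of PI3K, ran from 6.06 to 9.20 CPM with a median of 6.63 in ac-WT and from 8.12 to 12.6 CPM with a median of 10.1 in ac-CYB5R3–KO hearts. The overlap came from ac-WT mouse 1, the highest of its group. For Pik3r3 the log2 fold change was 0.53 (SE 0.13), and the edgeR p was 0.00138 before and 0.173 after adjustment. Irs2, an insulin and IGF1 receptor adaptor, had the most negative value of the list, -0.38 (SE 0.26, edgeR adjusted p = 0.516).

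In the growth hormone axis, which sets Igf1 transcription through STAT5, 5 of 6 genes were lower and 1 was higher with a median of -0.19, where 48.8% of all genes were higher. Cish, a STAT5 target that feeds back on cytokine receptors, ran from 23.6 to 48.9 CPM with a median of 27.1 in ac-WT and from 14.3 to 26.3 CPM with a median of 16.5 in ac-CYB5R3–KO hearts. In this gene ac-WT mice 2 and 3 were the highest hearts of all. For Cish the log2 fold change was -0.84 (SE 0.21), and the edgeR p was 0.00156 before and 0.173 after adjustment. Without ac-WT mice 2 and 3 the log2 fold change was -0.49 (edgeR adjusted p = 0.437). Stat5b, the factor itself, differed by -0.27 on the log2 scale (SE 0.13, adjusted p = 0.358 in edgeR). The highest hearts of all were ac-WT mice 2 and 3 for Stat5b (35.6 and 27.9 CPM) and Stat5a (7.09 and 8.82 CPM) too, but not for Ghr, Jak2 or Socs2. Cish and Pik3r3 are also among genes that the study picked from these samples, so their place here is not independent of that choice.

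FOXO-regulated genes, which AKT signaling normally keeps low, had a median of 0.24 over 10 genes, with 7 higher and 3 lower. Bnip3, a mitochondrial outer membrane protein of mitophagy, ran from 18.1 to 49.4 CPM with a median of 31.8 in ac-WT and from 43.5 to 79.6 CPM with a median of 51.3 in ac-CYB5R3–KO hearts. Here ac-WT mice 2 and 3 were again at the low end. The log2 fold change of Bnip3 was 0.78 (SE 0.23), with an edgeR p of 0.00429 before and 0.188 after adjustment, and it was 0.55 without these mice (edgeR adjusted p = 0.443). Sesn3 followed in size with 0.40 (SE 0.22, edgeR adjusted p = 0.425).

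Among the imprinted neighbours and mRNA binding proteins of Igf2, 3 of 6 genes were tested. H19, the noncoding RNA next to Igf2, had 32.4 ± 13.2 CPM in ac-WT and 46.0 ± 12.4 CPM in ac-CYB5R3–KO hearts, a difference of 0.51 on the log2 scale (SE 0.27, adjusted p = 0.408 in edgeR). The 8 cell-surface partners of IGFBP2 and of the binding proteins had a median of 0.03, with 5 higher and 3 lower. The largest differences were in Lrp2, a low endocytic receptor gene, with -0.69 (SE 0.77, edgeR adjusted p = 0.689), and in Itgb1, the beta-1 integrin gene, with 0.38 (SE 0.19, edgeR adjusted p = 0.384). For Itgb1 too, ac-WT mice 2 and 3 were the lowest control hearts (234 and 229 CPM).

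**Figure D5:**
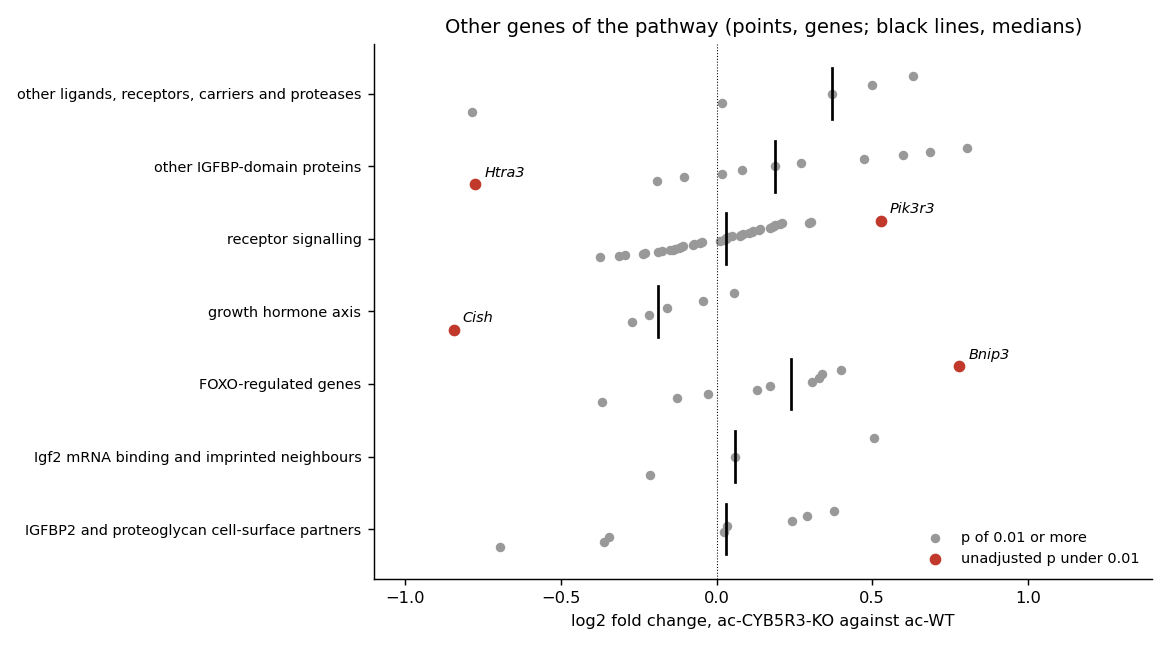
Log2 fold change, ac-CYB5R3–KO against ac-WT hearts, of the 83 tested genes of 7 pathway lists. Points are genes, black lines are list medians and red points are the 4 genes with an unadjusted edgeR p under 0.01. Most genes lie close to 0, with Cish (-0.84) and Ccn5 (0.81) at the ends.

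The summed markers of the heart's main cell types overlapped between groups. For the counts below, 3.27% of all genes tested were lower and 1.33% higher at an unadjusted edgeR p under 0.01. The summed level of 7 cardiomyocyte genes was 18567 to 43015 CPM in ac-WT and 13873 to 23406 CPM in ac-CYB5R3–KO hearts, with 5 of 7 lower and 2 of them at p under 0.01. That of 6 fibroblast genes was 922 to 3712 CPM and 2224 to 3413 CPM, with 3 higher, 3 lower and 0 at p under 0.01. The lists for endothelial cells (5 genes, 1 higher and 4 lower), mesothelial cells (6 genes, all lower) and macrophages (5 genes, 2 higher and 3 lower) also held 0 genes at p under 0.01. Smooth muscle and pericyte genes (2 of 6 higher and 4 lower, 2 of the latter at p under 0.01) summed to 349 to 436 CPM in ac-WT and 282 to 404 CPM in ac-CYB5R3–KO hearts. Schwann cell and neuron genes had 4 of 4 tested genes lower, 2 of them at p under 0.01, with 6.31 to 16.0 CPM in ac-WT and 4.14 to 6.96 CPM in ac-CYB5R3–KO hearts. Their part in the levels of Igfbp6, Igfbp7 and the other members was not tested.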

How the data were processed

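The authors sequenced the RNA of whole hearts (6 ac-WT, 6 ac-CYB5R3–KO) and deposited counts, a whole number of reads per Ensembl gene and library, without normalization. The study's methods name mm9 as the genome, while the submitters' processing notes name GRCm39, STAR and featureCounts. The strand setting and annotation of the counting are not given in the sources used here, so reads of overlapping genes may have been divided between them. Columns were assigned by sample labels, with 0 left unused. Symbols were found for 31027 of 53700 identifiers (57.8%) and for all 104 genes of the pathway lists. Coordinates and exon lengths came from GENCODE on NCBIM37, matched by identifier, and promoter windows from RefSeq on GRCm38.p6, matched by symbol for all 10 members.

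Counts were filtered with filterByExpr (minimum count 10), scaled by TMM and compared by quasi-likelihood F-tests in edgeR (version 4.0.16, R 4.3.3), two-sided and without covariates, adjusted by Benjamini-Hochberg over 17847 genes. Single members were compared by an exact permutation test on log2(CPM + 0.1) over all placements of the hearts. The tests were checked on simulated counts. Further analyses used DESeq2 (version 1.42.0), its size factors in edgeR, limma-voom (version 3.58.1), total counts, no filter, 10 counts in every library, a block of replicate numbers, 1 surrogate variable (sva version 3.50.0), robust estimates and leaving out mice. At this depth the spread between mice (biological coefficient of variation 26.5%) limits precision, and low counts add to it in Igf2 and, in ac-WT hearts, in Igfbp2. Counting intervals treat reads as independent although no molecular identifiers were used.

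Members and lists were chosen with earlier results of these data known. Besides the members, the text names genes of each list with an unadjusted p under 0.01 or the 2 largest absolute log2 fold changes, the 5 genes most like Igfbp2 by each measure, and its nearest tested neighbours. Igfbp1, Igf2as, Polr2b, Insr and the genes too low to test were named after their values were seen.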

Additional observations from a re-analysis of the deposited data

Results flagged for a closer look

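Among the ac-WT hearts, Igfbp2 was 0.290 CPM in mouse 4 against 0.0278 to 0.123 CPM in the other hearts of the group. The gap to the nearest heart was 0.638 of the group's range, above Dixon's 95% critical value for 6 samples. This was the 1 group so marked among 20 tested (10 members in 2 groups), where chance marks about 1 in 20, and mouse 4 had 14 counts of Igfbp2.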

How the results depend on the processing

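Igfbp6 kept its direction under all 22 alternatives (log2 fold change from -0.87 to -0.51, with p under 0.01 in 21 and an edgeR, DESeq2 or limma-voom adjusted p from 0.00651 to 0.410). Igfbp2 could be fitted in 21 alternatives, since a minimum of 10 counts in every library removed it. Its direction in them is no support, because the family was chosen for its rise in the same counts. The number of members other than Igfbp2 with an adjusted p under 0.05 was 0 in edgeR and 1 in DESeq2, and with an unadjusted p under 0.01 it was 1 in edgeR, 2 in DESeq2, 0 with total counts and 1 to 2 with 1 mouse left out, 2 without ac-WT mouse 1 or 6 or ac-CYB5R3–KO mouse 3 or 6. Among the pathway genes, DESeq2 called 4 at an adjusted p under 0.05, and at p under 0.01 the count was 4 in edgeR, 1 with a surrogate variable and also 1 once ac-WT mice 2 and 3 were left out. The log2 fold change of Igf1 turned to -0.31 with a surrogate variable and to -0.20 without ac-WT mice 2 and 3 (exact permutation p = 0.233), and with 1 mouse left out it was from -0.029 (without ac-WT mouse 2) to 0.27, with -0.014 without ac-WT mouse 3. That of Igfbp4 turned to -0.080 and -0.064 (exact permutation p = 0.6) in the same 2 analyses, and with 1 mouse left out it was from -0.0058 (without ac-WT mouse 3) to 0.15. By level per kb, 0 of the 7 neighbouring pairs without Igfbp2, a choice made after seeing the data, passed in either group. Over all 9 pairs, 0 passed in ac-WT and 6 in ac-CYB5R3–KO hearts, 2 of them pairs with Igfbp2. Nothing is read from these counts over 9 pairs. They depend on the values for which the family was chosen and on how many pairs share the smallest p. Against them, 5 of the 9 passed in ac-WT without length scaling and 0 in ac-CYB5R3–KO with the longest transcript. The cause of these changes was not tested. Over all genes, 18 had an adjusted p under 0.05 in edgeR, 437 in DESeq2, 2 in limma-voom, 8 with DESeq2 size factors or total counts, 35 of 34949 without a filter, 3 with a surrogate variable, 7 without ac-WT mice 2 and 3, and 2 to 38 with 1 mouse left out. At p under 0.01 there were 820 (583 lower), 1238 in DESeq2, 376 with a surrogate variable, 426 without ac-WT mice 2 and 3, 463 to 1169 with 1 mouse left out, and 426 (141 lower) with total counts. Replicate numbers were not taken as pairing the mice in the main fit. The deviations of same-numbered hearts correlated from -0.0962 to 0.357, with a mean of 0.144 against -0.0281 for other pairs. Of the ac-WT hearts, 3 of 6 were closest to their own number. Whether same-numbered hearts share a batch was not tested. Blocking on the replicate number left 2 genes at an adjusted p under 0.05 and 672 at an unadjusted p under 0.01 among all genes. Among the members other than Igfbp2, 0 passed after adjustment, 1 had p under 0.01 and 4 had p under 0.05 (Igf2r, Igfbp3, Igfbp6 and Igfbp7). Under the block Igfbp6 had a log2 fold change of -0.77 (edgeR adjusted p = 0.236). Depth limits Igfbp2 in ac-WT hearts, where 2 libraries held 3 counts or fewer, and Igf2 in all.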
